A study of Mus musculus with 4 samples.

Results

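The transcriptome of the septic mouse kidney with melatonin was set against that without it, gene by gene, over every gene with enough reads. Of the 4 RNA-sequencing libraries of the series, the 2 kidney libraries made up the comparison, and of 55401 genes listed, 16932 averaged 10 counts or more over that pair. Both kidneys came from male C57BL/6 mice aged 8 weeks that underwent cecal ligation and puncture (CLP), an operation in which the ligated and punctured cecum seeds the abdomen with gut bacteria, and were taken 24 h later. The CLP library had no melatonin. The CLP + MLT library, labelled CLP+MLT4 with the final digit left unexplained, had melatonin (MLT) in the drinking water at 25 μg/ml for 14 days before the operation. No kidney of an unoperated or sham-operated mouse was analysed here, so that higher and lower below mean only relative to the CLP library and not relative to health. Each group was 1 library, from 1 mouse or a pool, which the sources used here do not say, and no difference below has a replicate check.

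The kidney filters plasma in the glomerulus and then recovers sugar, amino acids, phosphate and salt along a tubule whose segments each carry their own transporters. The proximal segments S1 and S2 do most of this recovery and, with S3, are rich in mitochondria and peroxisomes. In sepsis the tubule cells meet bacterial products and cytokines, and are known to make acute phase proteins and injury markers while dropping transporters. Melatonin is a pineal hormone that acts through the receptors Mtnr1a and Mtnr1b and is also a direct scavenger of radicals.

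The files held 22927905 reads on genes for the CLP library and 16474248 for the CLP + MLT library. Levels in CPM (counts per 1000000 reads) and ratios were set with trimmed mean (TMM) scaling within the pair, and a ratio is given as log2 of CLP + MLT over CLP with 0.5 counts added. A gene was called higher or lower when its ratio was at least 1.5-fold and an exact binomial test of its 2 counts gave p at or below 0.01. That test compares these 2 libraries and not the conditions, and the 95% exact intervals given below cover counting error alone. The tissue matched its label in both libraries, with Umod, the urinary protein of the thick ascending limb, at 94985 and 50359 counts and the proximal phosphate transporter Slc34a1 at 31882 and 31051 counts in the CLP and the CLP + MLT library. All 6 acinar markers of the pancreas had 0 or 1 counts. Of 12 liver markers Ahsg, Cyp3a11, Cyp2c29 and Tat had none in either library. The filter was passed by 7 others, among them Apob (2913 and 1726 counts), Apoc3 (2298 and 3003 counts) and Ttr (1209 and 793 counts). Apoc3 (log2 ratio 1.06) and F2 (22 and 30 counts, log2 ratio 1.10) were called higher and 0 were called lower. The summed level of the list was 333 and 420.3 CPM.

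The pair differed about equally in both directions. Of the 16932 genes, 1320 (7.80%) were called higher in the CLP + MLT library and 1284 (7.58%) were called lower, with a median log2 ratio of 0.003 and an SD over genes of 0.65. Scaling by library size alone, in place of TMM, moved that median to -0.19 and the calls to 727 higher and 2373 lower, and all values below are relative to the TMM centre. Of the called protein-coding genes averaging 100 counts or more, 611 were higher and 614 lower, but the tails were unequal. At least 4-fold differences numbered 5 among the higher and 30 among the lower genes, and at least 8-fold differences 0 and 9. All 15 tested genes without a single count in 1 of the libraries were at 0 in the CLP + MLT library, which was also the shallower one.

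**Figure D1:**
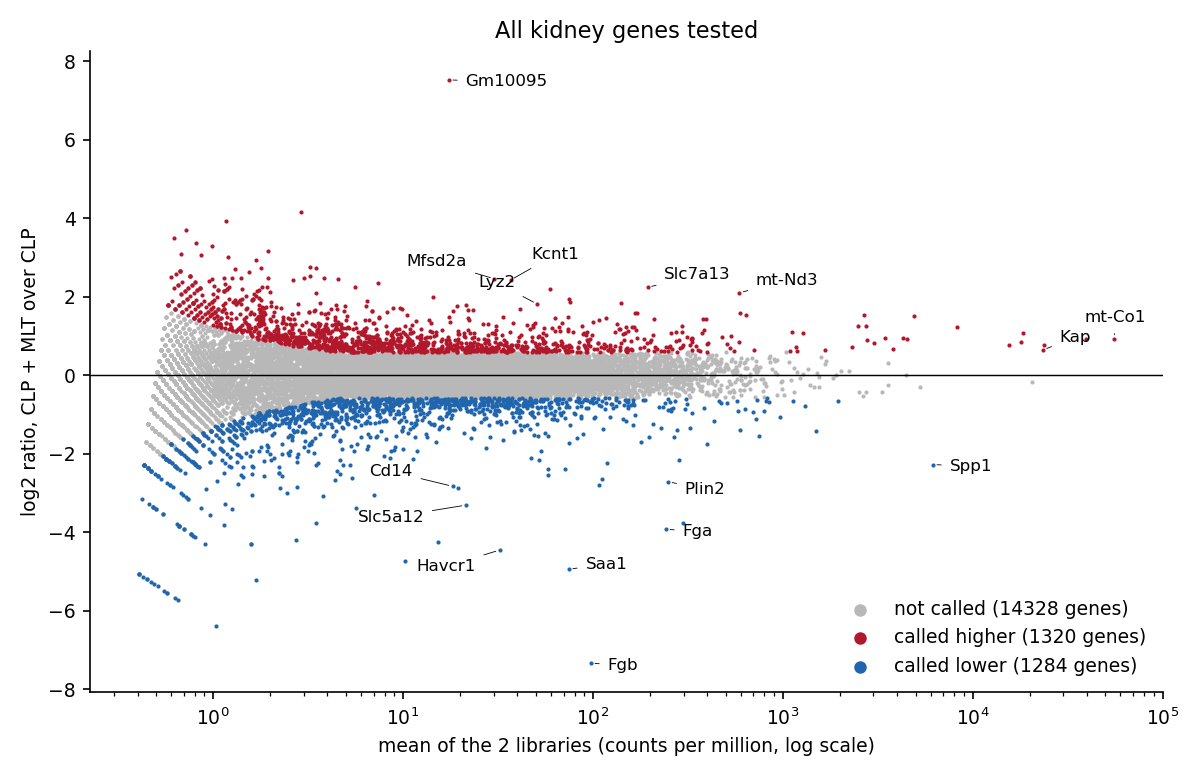
Log2 ratio of CLP + MLT over CLP (vertical axis) against the mean level in CPM (horizontal axis, log scale) for the 16932 kidney genes tested. Red points are the 1320 genes called higher, blue points the 1284 called lower and grey points the rest. Among protein-coding genes averaging 100 counts or more the lower tail reaches -7.34 (Fgb) and the upper tail 2.46 (Mfsd2a), and the single point at the top is the pseudogene Gm10095.

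The largest fall belonged to fibrinogen, the plasma clotting protein, whose 3 chains are encoded side by side at chr3:83007724-83049863 (GRCm38). Fgb, the beta chain on the minus strand at chr3:83040141-83049863, had 4755 and 18 counts in the CLP and CLP + MLT libraries, a log2 ratio of -7.34 (95% interval -8.13 to -6.71). The alpha chain Fga had 11150 and 459 counts with a log2 ratio of -3.93 (-4.07 to -3.80), and the gamma chain Fgg had 13553 and 622 counts with -3.77 (-3.89 to -3.66). All 3 chains were thus abundant in the CLP kidney, Fgg at 552 CPM, and were lower by 13.7-fold to 162-fold with melatonin. Fgg shares exon sequence with the opposite-strand gene Gm30097, so that reads of the pair cannot be told apart without the strand setting. Albumin (Alb), the main product of the liver cells that make plasma fibrinogen, stood at 114 and 71 counts (log2 ratio -0.01, interval -0.46 to 0.43). The heart libraries had 491 and 326 counts over the 3 chains.

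The serum amyloid A genes, whose proteins coat high density lipoprotein in the acute phase, followed. Saa1 had 3546 and 72 counts (log2 ratio -4.94), Saa2 484 and 11 counts (-4.74), Saa4 308 and 23 counts (-3.05) and Saa3 560 and 183 counts (-0.94), all called lower. Saa1 and Saa2 are near-identical in sequence, so that the split of reads between them is uncertain. The orosomucoids, small carrier proteins of plasma, went from 51 counts to 0 for Orm2, at least 10.7-fold lower, and from 28 to 0 for Orm1, at least 5.86-fold lower, both against a floor of 3 counts in the library. Among the 18 tested genes of the acute phase list, 16 were called lower and 0 higher. The median log2 ratio was -2.54, or -2.41 with both Orm genes at their bound.

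Injury genes of the tubule were low in the same library. Havcr1 (kidney injury molecule 1), a receptor that lets tubule cells take up dead neighbours, at chr11:46735080-46779578, had 1517 and 43 counts (log2 ratio -4.46, interval -4.94 to -4.03). Lcn2 (NGAL), which withholds bacterial iron carriers and serves as a urinary injury marker, had 11346 and 1600 counts (-2.15), and Spp1 (osteopontin), a secreted phosphoprotein, had 251014 and 32496 counts (-2.28). Spp1 showed the largest fall in CPM of the genes tested, with 10232 and 2110.5 CPM. Sox9, a transcription factor of regenerating tubule cells, had 92 and 11 counts (-2.35). The list of 23 injury genes did not move as a block, since 8 were called lower and 3 higher, with a median of -0.19. The higher ones were the small heat shock protein Cryab (4085 and 5369 counts, log2 ratio 1.07), the calcium-binding S100a6 (297 and 300 counts, log2 ratio 0.69) and the epithelial keratin Krt18 (729 and 710 counts, log2 ratio 0.63).

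Ratios of the other leading falls were spread over unlike functions. Serpina3n, a secreted protease inhibitor, had 255 and 15 counts (-3.38) and Lrg1, a leucine-rich plasma glycoprotein, 4629 and 418 counts (-2.80). Cd14, the co-receptor that hands bacterial lipopolysaccharide to Tlr4, had 787 and 69 counts (-2.83). Plin2, the coat protein of lipid droplets, had 10595 and 1014 counts (-2.71, interval -2.81 to -2.62). Of 8 fat cell markers 3 were tested and 1 was called lower, the droplet protein Plin1 (33 and 1 counts, log2 ratio -3.93). The other tested ones were Cidec (32 and 8 counts, log2 ratio -1.29) and Fabp4 (2286 and 1287 counts, log2 ratio -0.16), while Adipoq, Lep and Retn had 0 counts in both libraries. The summed level of the list was 96.3 and 84.4 CPM, and its part in the value of Plin2 was not tested. Hmox1, which opens the haem ring to release iron, had 4739 and 472 counts (-2.65). The uncharacterised gene 2010003K11Rik had 839 and 71 counts (-2.88).

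The leading rises were smaller than the leading falls. Mfsd2a, a carrier of lysophospholipids, had 228 and 788 counts (log2 ratio 2.46, interval 2.25 to 2.68), and Kcnt1, a potassium channel opened by sodium, had 283 and 956 counts (2.43). Slc7a13, the S3 carrier of aspartate, glutamate and cystine, had 1666 and 4936 counts (2.24, interval 2.16 to 2.32). Hao2, a peroxisomal hydroxy acid oxidase, had 759 and 1830 counts (1.94) and Mep1b, a brush border metalloprotease subunit, 1507 and 3360 counts (1.83). The prolactin receptor Prlr had 141 and 353 counts (1.99) and shares exon sequence with Gm21973. Rdh16f2, a retinol dehydrogenase family member, had 806 and 1840 counts (1.86), and Ugt2b5, a glucuronosyltransferase, 109 and 227 counts (1.72). Gm4450 (522 and 1507 counts, log2 ratio 2.20), Lrrc66 (236 and 513 counts, log2 ratio 1.79), the phosphatase Dusp15 (213 and 458 counts, log2 ratio 1.77) and the adaptor Dok2 of blood cells (71 and 152 counts, log2 ratio 1.76) completed the nuclear genes of this group, with Lyz2 and Pvalb given below by cell type.

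RefSeq promoter windows of 300 bases (build GRCm38.p6) were read for 10831 of the 13782 nuclear protein-coding genes tested. Each held 250 bases before and 50 from the RefSeq start on, taking the RefSeq start nearest the annotated start of the gene. The windows of the leading falls and rises are shown because they differ in CpG, the dinucleotide that marks broadly used promoters and is scarce at many tissue-restricted ones. The 2 largest falls and the 2 largest rises with a window are given, leaving out the Saa copies, 5′ to 3′ with every CpG in capitals. The Fgb window (chr3:83049814-83050113, minus strand) held 5 CpG, the Havcr1 window (chr11:46739973-46740272, plus strand) 4, the Gm4450 window (chr3:98457077-98457376, minus strand) 1 and the Mfsd2a window (chr4:122961139-122961438, minus strand) 22. The Havcr1 window lies inside the annotated span of the gene, which begins at chr11:46735080.
Fgb: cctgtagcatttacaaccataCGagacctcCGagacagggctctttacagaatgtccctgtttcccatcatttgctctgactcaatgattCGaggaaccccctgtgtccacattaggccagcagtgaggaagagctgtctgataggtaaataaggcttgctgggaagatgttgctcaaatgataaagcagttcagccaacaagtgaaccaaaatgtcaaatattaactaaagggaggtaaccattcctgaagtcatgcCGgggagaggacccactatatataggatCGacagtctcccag
Havcr1: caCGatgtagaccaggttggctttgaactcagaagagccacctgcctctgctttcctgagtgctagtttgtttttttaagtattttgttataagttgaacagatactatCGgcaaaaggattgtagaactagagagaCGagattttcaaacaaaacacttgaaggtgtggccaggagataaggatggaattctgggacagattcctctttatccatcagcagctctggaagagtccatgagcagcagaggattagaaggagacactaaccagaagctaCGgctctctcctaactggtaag
Gm4450: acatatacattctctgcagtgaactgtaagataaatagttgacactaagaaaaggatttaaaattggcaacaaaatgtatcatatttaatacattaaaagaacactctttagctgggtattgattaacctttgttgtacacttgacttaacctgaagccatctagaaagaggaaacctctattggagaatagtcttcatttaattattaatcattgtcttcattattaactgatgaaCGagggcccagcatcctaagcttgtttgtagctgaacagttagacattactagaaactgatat
Mfsd2a: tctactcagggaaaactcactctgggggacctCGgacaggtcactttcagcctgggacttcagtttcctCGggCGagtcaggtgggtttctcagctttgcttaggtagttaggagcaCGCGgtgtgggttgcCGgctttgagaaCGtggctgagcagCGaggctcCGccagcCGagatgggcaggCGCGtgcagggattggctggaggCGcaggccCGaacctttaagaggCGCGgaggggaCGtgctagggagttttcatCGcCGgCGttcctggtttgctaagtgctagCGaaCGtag

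Called genes had fewer CpG than the others in both directions. The median window held 20 CpG over all tested genes, 14 among the 727 called higher and 16 among the 710 called lower. Windows with under 10 CpG made up 21.5% of all, 41.8% of those called higher and 33.1% of those called lower. Genes with CpG-poor windows were also read less deeply, with a median of 127 counts at 0 to 4 CpG against 559 at 30 or more, so that the shares were compared within bands of level. At 100 to 1000 CPM, 14.3% of 189 genes with under 10 CpG were called higher and 11.6% lower, against 4.24% and 3.61% of 637 genes with 20 or more. At 10 to 100 CPM the shares were 10.2% and 7.81% against 3.21% and 3.91%. The gap was smaller at 1 to 10 CPM, with 16.9% and 11.8% against 10.4% and 9.22%.

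**Figure D2:**
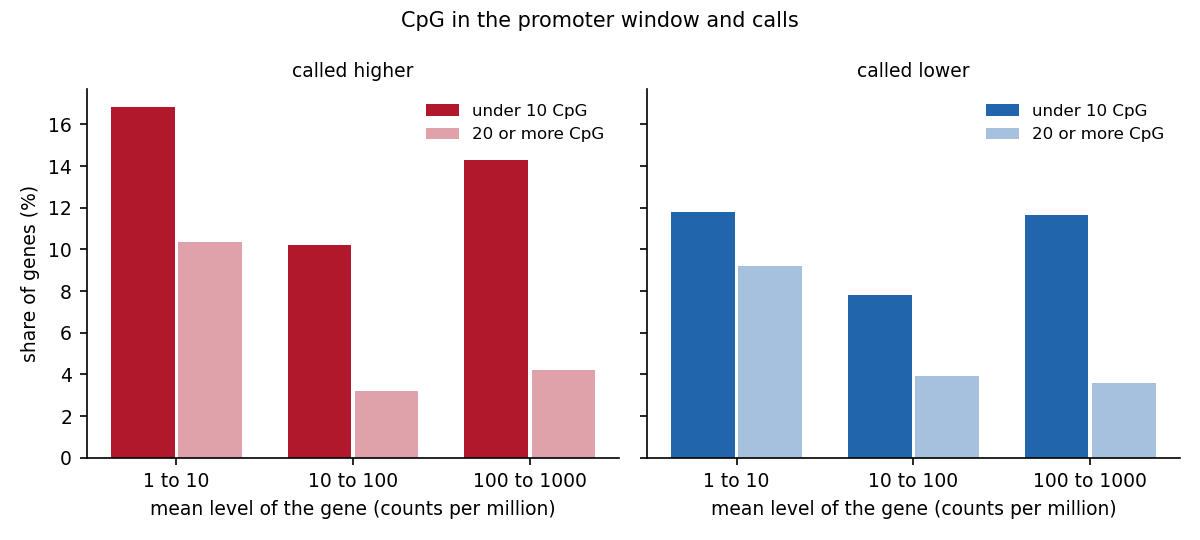
Share of nuclear protein-coding genes called higher (left, red) and called lower (right, blue) in percent, by mean level in CPM, for genes with under 10 CpG in the promoter window (dark bars) and with 20 or more (pale bars). In each of the 3 bands the dark bar is the taller one, for instance 14.3% against 4.24% called higher at 100 to 1000 CPM.

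Short motifs were counted in the same windows on both strands. The ETS site CCGGAAG was in 17.2% of all windows, 11.4% of those called higher and 9.58% of those called lower, and the NRF1 site GCGCANGCG, which holds CpG as the ETS site does, in 12.9%, 7.84% and 7.61%. The TATA box TATAAA was in 7.51%, 10.2% and 11.3%. The C/EBP site TTGCNNAA, bound by factors of the acute phase, was in 8.31% of all windows, 9.08% of those called higher and 12.4% of those called lower. The STAT site TTCNNNGAA was in 6.85%, 6.46% and 6.48%, and the AP-1 site TGANTCA in 4.98%, 6.19% and 7.04%. The Fgb window above holds each of these sites and the D-box TTANNTAA. The part of CpG content in the shares of these motifs was not tested. The cyclic AMP response element TGACGTCA was in 3.02%, 3.58% and 1.69%. The E2F site TTTGGCGC, known from genes of DNA replication, was in 0.914%, 1.93% and 0.704%, that is in only 14 of the higher and 5 of the lower genes. Such matches describe the letters of a window and not the binding of a factor.

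Segments of the tubule differed from each other. In S1 and S2, the first part of the proximal tubule, 9 of 17 markers were called lower (52.9%) and 3 higher, with a median log2 ratio of -0.63. The lactate carrier Slc5a12 had 955 and 60 counts (-3.31, interval -3.72 to -2.94), the phosphate carrier Slc34a3 187 and 18 counts (-2.68) and the glucose carrier Slc5a2 (SGLT2), target of the gliflozin drugs, 4771 and 637 counts (-2.23). Of the marker genes higher in the CLP + MLT library, the inositol oxygenase Miox had 9107 and 9857 counts (0.79), the organic anion carrier Slc22a8 3423 and 3555 counts (0.73) and the main phosphate carrier Slc34a1 31882 and 31051 counts (0.63). With library size scaling 1 of these 3 stayed called. The markers of this segment thus lay on both sides of the centre.

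No marker of S3 or of the distal nephron was called lower. In S3, 3 of 10 markers were called higher with a median of 0.50, namely Slc7a13, the nicotinate and urate carrier Slc22a13 (1601 and 2050 counts, log2 ratio 1.03) and Slc3a1, the heavy chain of the cystine carrier (7143 and 6832 counts, log2 ratio 0.61). The thick ascending limb had 2 of 11 called higher. These were Slc12a1 (NKCC2), the salt carrier blocked by loop diuretics, with 20190 and 26639 counts (1.07), and the growth factor Egf with 8648 and 10904 counts (1.01). Umod of the same cells had a log2 ratio of -0.24. In the distal convoluted and connecting tubule, 2 of 9 were higher, the calcium buffer Pvalb (67 and 157 counts, log2 ratio 1.89) and the magnesium channel Trpm6 (285 and 350 counts, log2 ratio 0.97).

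The collecting duct list for principal cells, which reabsorb water, had 4 of 9 members called higher and a median of 0.47. The vasopressin receptor Avpr2 had 697 and 802 counts (0.87), the sodium pump regulator Fxyd4 827 and 947 counts (0.87) and the basolateral water channel Aqp4 984 and 1094 counts (0.82), whereas the vasopressin-regulated Aqp2 was at 0.08. For the acid and base secreting intercalated cells all 13 markers lay above 0, with a median of 0.57 and quartiles of 0.46 to 0.64, and 6 were called. They were led by the insulin receptor-related Insrr (1165 and 1255 counts, log2 ratio 0.78), the proton pump subunit Atp6v1c2 (734 and 788 counts, log2 ratio 0.77) and the ammonium channel Rhbg (77 and 82 counts, log2 ratio 0.76). These ratios lay close to the 1.5-fold limit, and scaling by library size left 0 of the 13 called and a median of 0.37.

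The glomerulus and the vessels leaned the other way by a smaller amount. Podocyte markers had a median of -0.32, with 2 of 11 called lower (18.2%), among them the surface sialomucin Podxl (5429 and 2213 counts, log2 ratio -0.62). Above 0 lay 2 of the 11, Tcf21 (171 and 154 counts, log2 ratio 0.52) and Nphs1 (1134 and 756 counts, log2 ratio 0.09), without a call. Endothelial markers had a median of -0.21, with 13 of 16 below 0. The 1 call was the VEGF receptor Flt1 (1039 and 432 counts, log2 ratio -0.59). That share of 6.25% called lower was no larger than the 7.58% over all genes tested. Mural and smooth muscle markers had 3 of 12 called lower, among them renin (Ren1), which starts the angiotensin cascade, with 4912 and 1810 counts (-0.77). The other 2 were the smooth muscle proteins Cnn1 (42 and 10 counts, log2 ratio -1.36) and Lmod1 (71 and 23 counts, log2 ratio -0.94). In bulk tissue fewer cells of a type and less RNA per cell cannot be told apart.

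Blood cell markers did not move as one. Of 16 tested macrophage and monocyte markers 4 were called higher, the lysozyme Lyz2 (552 and 1219 counts, log2 ratio 1.81), Aif1 (52 and 106 counts, log2 ratio 1.69), the growth factor receptor Csf1r (1140 and 1569 counts, log2 ratio 1.13) and the adaptor Tyrobp (184 and 191 counts, log2 ratio 0.72). Below 0 lay 2 of the 16, Cd14, which was called lower at 7.12-fold, and Cd68 (157 and 70 counts, log2 ratio -0.49), without a call. Csf1r, needed for macrophage survival, was the marker of the list with most counts. Of 7 tested neutrophil markers 3 were called lower and none higher. These were the granule protein Ngp (53 and 2 counts, log2 ratio -3.82), lactoferrin (Ltf, 25 and 1 counts, log2 ratio -3.54) and the calprotectin subunit S100a9 (278 and 104 counts, log2 ratio -0.74). Csf3r (54 and 36 counts, log2 ratio 0.09) and Retnlg (26 and 30 counts, log2 ratio 0.86) lay above 0 without a call, and Elane, Mpo and Ly6g had 0 counts in both libraries. Ngp and Ltf passed the filter only through their counts in the CLP library. Without the filter the median of the list went from -0.72 to -0.01 over 10 genes. These included Camp (4 and 3 counts), Cxcr2 (6 and 6 counts) and Mmp9 (2 and 3 counts), all above 0. Of 6 tested B and plasma cell markers 4 were called higher from few counts, led by the mu chain Ighm at 20 and 87 counts (2.76, interval 2.08 to 3.57). The others were the antibody chains Igha (4 and 16 counts, log2 ratio 2.50) and Igkc (17 and 35 counts, log2 ratio 1.68) and the B cell receptor subunit Cd79b (12 and 23 counts, log2 ratio 1.56), and the surface marker Ms4a1 had 0 counts in both libraries.

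**Figure D3:**
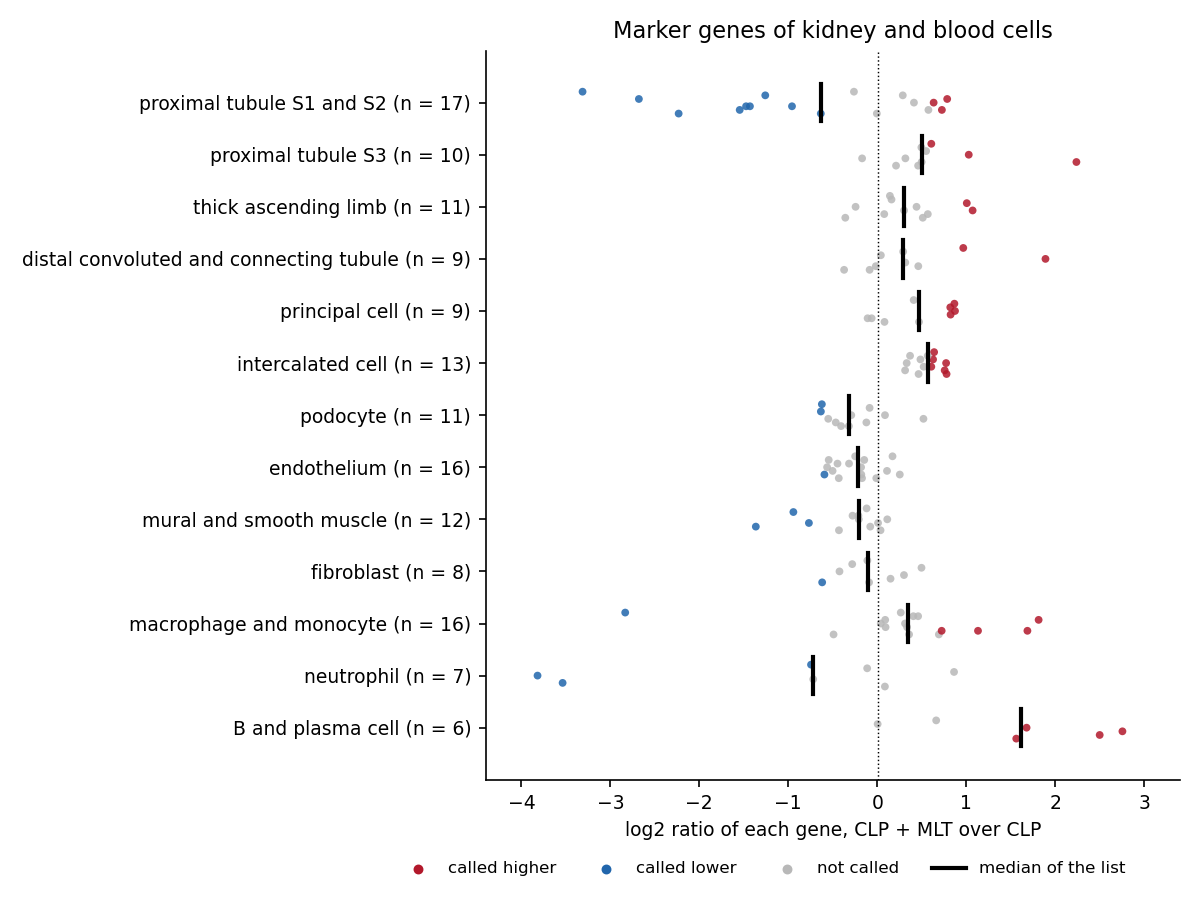
Log2 ratio of CLP + MLT over CLP for each tested marker of 13 cell types. Points are genes, red if called higher, blue if called lower and grey otherwise, the bar is the median of the list and the dotted line the median of all genes tested. Markers of S1 and S2 spread from -3.31 to 0.79, while all 13 intercalated cell markers lie above 0.

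The largest gains in CPM came from the mitochondrial genome. All 13 of its protein-coding genes had ratios above 0 and 12 were called higher, with a median of 0.92 and a summed level of 131630 CPM without and 247750 CPM with melatonin. The cytochrome oxidase gene mt-Co1 had 939502 and 1119224 counts (0.92), and the largest ratio was that of the complex I gene mt-Nd3 with 5472 and 14712 counts, a 4.28-fold difference. The mitochondrial genome took 14.8% of reads on genes without and 24.2% with melatonin. Ribosomal RNA moved the same way, with the chr17 ribosomal locus CT010467.1, which overlaps Gm42418 and AY036118, at 62988 and 112093 counts (1.50), and reads aligned to more than 1 place made up 23.6% and 32.6% of the libraries. The part of library make-up in the mitochondrial result was not tested.

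Nuclear genes of the same machine moved in the same direction by less. Of 79 nuclear subunits of the respiratory chain and ATP synthase, 67 lay above 0 and 14 were called higher (17.7%), none lower, with a median of 0.33. Scaling by library size left 6 called higher and 1 lower, with a median of 0.14. The 3 highest were the complex I subunits Ndufc1 (850 and 1042 counts, log2 ratio 0.97) and Ndufb7 (4732 and 5478 counts, log2 ratio 0.88) and the complex III subunit Uqcr11 (2744 and 3154 counts, log2 ratio 0.87). Atp5b, the catalytic subunit of ATP synthase, was at -0.04. Other mitochondrial genes did not follow, since the median was 0.04 for 77 mitochondrial ribosome genes, -0.10 for 31 import and chaperone genes and -0.10 for 18 genes of the citrate cycle. The first of these turned to -0.15 under library size scaling.

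Protein synthesis was split by step. Cytosolic ribosomal proteins had 11 of 82 called higher and none lower, with a median of 0.24, led by Rpl11 (5172 and 6419 counts, log2 ratio 0.98), Rpl21 (3144 and 3737 counts, log2 ratio 0.92) and Rps29 (1282 and 1335 counts, log2 ratio 0.73), and with library size scaling 2 were called and the median was 0.04. Initiation and elongation factors had a median of -0.19. Of 20 aminoacyl tRNA synthetases 19 lay below 0, with a median of -0.27 and 1 call, the isoleucine enzyme Iars (965 and 352 counts, log2 ratio -0.78), or 7 under library size scaling. The 1 call made up 5% of the list, against 7.58% called lower over all genes tested. Ribosomal protein genes have many processed copies in the genome, and reads that match several of them are not in the counts.

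The secretory and degradative compartments lay below the centre. Of 36 genes for folding in the endoplasmic reticulum, 34 had ratios below 0 and 9 were called lower, none higher, with a median of -0.37. The lowest were the chaperone Hyou1 (2846 and 865 counts, log2 ratio -1.05), the secreted stress factor Manf (2954 and 1047 counts, log2 ratio -0.82) and the signal peptidase subunit Spcs1 (1080 and 412 counts, log2 ratio -0.72). In the lysosome 9 of 39 genes were called lower and none higher, with a median of -0.19. The proteases Ctsl (21265 and 5063 counts, log2 ratio -1.40) and Ctsb (18581 and 6202 counts, log2 ratio -0.91) and the membrane receptor Scarb2 (1628 and 490 counts, log2 ratio -1.06) were lowest. Golgi and proteasome genes were called lower once each of 38 and 46 (2.63% and 2.17%), a smaller share than the 7.58% over all genes tested. Their medians were -0.17 and -0.15, and library size scaling gave 9 lower in each. Of the tubulins 3 of 11 were called lower, Tubb2a (1259 and 432 counts, log2 ratio -0.87), Tuba1c (2007 and 757 counts, log2 ratio -0.73) and Tubb2b (696 and 278 counts, log2 ratio -0.65).

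Genes of cell division were higher from low counts. For DNA replication 10 of 34 were called higher (29.4%), none lower, with a median of 0.23 (6 higher and 1 lower under library size scaling), led by the origin factor Cdc6 (8 and 19 counts, log2 ratio 1.84), the polymerase subunit Pole (34 and 65 counts, log2 ratio 1.59) and Gins3 (34 and 53 counts, log2 ratio 1.30). For mitosis 5 of 19 were called higher, none lower, led by the topoisomerase Top2a (10 and 30 counts, log2 ratio 2.19), the checkpoint kinase Bub1b (15 and 43 counts, log2 ratio 2.15) and the centromere histone Cenpa (21 and 42 counts, log2 ratio 1.64). The 95% interval of Top2a was 1.19 to 3.45. Over all genes tested 7.80% were called higher, and 12.6% of nuclear protein-coding genes at 1 to 10 CPM. Genes with few counts can pass the filter through the library in which they are higher, as Cdc6 did. With a mean of at least 50 counts, 3 mitosis genes were left, with a median of 0.23 in place of 0.48. For replication 27 genes were left, with a median of 0.14. Cdkn1a (p21), which stops the cycle before replication, had 560 and 107 counts (-1.71). Genes of the primary cilium had 4 of 38 called higher and 1 lower.

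**Figure D4:**
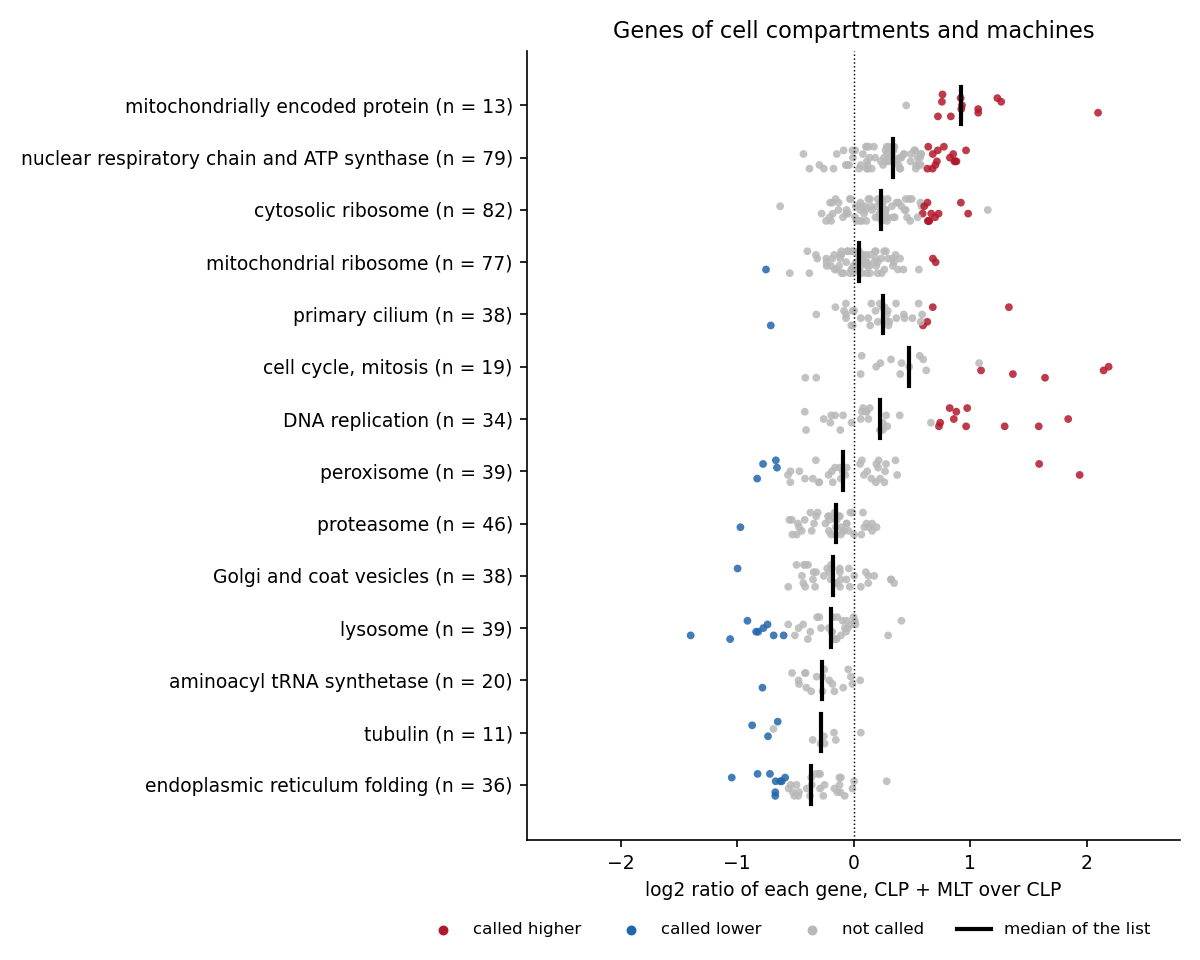
Log2 ratio of CLP + MLT over CLP for each tested gene of 14 cell compartments and machines. Points are genes, red if called higher, blue if called lower and grey otherwise, the bar is the median of the list and the dotted line the median of all genes tested. Medians run from 0.92 for mitochondrially encoded proteins to -0.37 for endoplasmic reticulum folding, and under library size scaling those of the mitochondrial ribosome fell below 0.

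In metabolism the calls fell on single genes rather than on most members of a pathway. For glycolysis 1 of 18 was called lower and for the citrate cycle 0 of 18, with none higher in either, or 5 and 1 under library size scaling. Gluconeogenesis had a median of -0.41, with pyruvate carboxylase (Pcx) called lower (13798 and 5497 counts, log2 ratio -0.66) and the rate-limiting Pck1 at 76597 and 33584 counts (-0.52) short of the limit. Ehhadh, a peroxisomal enzyme of fatty acid oxidation, was called lower (24652 and 9744 counts, log2 ratio -0.67). Pdk4, the kinase that closes the entry of pyruvate to the mitochondrion, had 6729 and 1290 counts (-1.71). Mitochondrial fatty acid oxidation had 1 gene called in each direction of 19, the subunit Etfb of the electron transfer flavoprotein (995 and 1017 counts, log2 ratio 0.70) and its dehydrogenase Etfdh (2682 and 1082 counts, log2 ratio -0.64). Cholesterol synthesis held opposite calls within 1 pathway, with Cyp51 (2030 and 3834 counts, log2 ratio 1.59) higher and Idi1 (47 and 7 counts, log2 ratio -2.02) lower. Psat1 of serine synthesis had 2931 and 352 counts (-2.38).

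Enzymes of drug and hormone handling were called lower more than higher. Of 48 tested cytochrome P450 genes 11 were called lower (22.9%) and 2 higher, with a median of -0.02. Cyp27b1, which activates vitamin D, had 185 and 31 counts (-1.89) and Cyp24a1, which breaks it down, 249 and 42 counts (-1.89), so that both arms were low together. Cyp2b10 had 124 and 23 counts (-1.74). Cyp2a5 had 27237 and 5857 counts (-1.55), or 1110.3 and 380.4 CPM. Over 266 solute carriers 27 were called higher and 33 lower, with a median of -0.01, and library size scaling gave 12 higher and 52 lower with a median of -0.21. Potassium channels had 10 of 46 called higher and 4 lower, with Kcnt1 and the renal channel Kcnk1 (2240 and 2385 counts, log2 ratio 0.76) among the higher. Kcnk1 was chosen after its values were seen.

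Among the most abundant messages, the largest losses in CPM after Spp1 were mostly small ratios. Gpx3, the plasma glutathione peroxidase made by the proximal tubule, had 535824 and 297691 counts (-0.18), and the ferritin heavy chain Fth1 142419 and 72749 counts (-0.30). The elongation factor Eef1a1 had 93880 and 43442 counts (-0.44) and the chaperone Hspa8 77426 and 35984 counts (-0.43). None of these 4 reached the 1.5-fold limit, although their counting intervals lay below 0. Selenop, the plasma carrier of selenium, was called lower with 53211 and 12532 counts (-1.41), and shares exon sequence with Ccdc152 on the other strand.

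Stress pathways lay lower on several fronts. Of 19 targets of NRF2, the factor that answers oxidants, 9 were called lower (47.4%) and none higher, with a median of -0.56, led by Hmox1, the carbonyl reductase Cbr3 (346 and 58 counts, log2 ratio -1.90) and the aldose reductase-like Akr1b8 (236 and 52 counts, log2 ratio -1.50). Iron genes had 7 of 13 called lower and 1 higher, with transferrin (Trf) at 2376 and 284 counts (-2.39), the hepcidin inducer Bmp6 at 1132 and 302 counts (-1.23) and Hfe at 1068 and 293 counts (-1.19). The one called higher was the reductase Steap3 (191 and 203 counts, log2 ratio 0.76). The light chain of ferritin Ftl1 had 58632 and 23508 counts (-0.65) and shares exons with Gm10252. Targets of ATF4, the factor of amino acid shortage, had 8 of 21 called lower and none higher, with Psat1, the kinase-like Trib3 (47 and 10 counts, log2 ratio -1.52) and the hormone Fgf21, which went from 36 counts to 1 (interval -9.84 to -1.93).

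Genes that answer glucocorticoids had 8 of 17 called lower (47.1%) and none higher, with a median of -0.47. Lcn2, Zbtb16 (338 and 55 counts, log2 ratio -1.94) and Cdkn1a were lowest, and Lcn2 and Cdkn1a also stand in the list of injury genes. The chaperone Fkbp5, a usual readout of the hormone, was at 2583 and 932 counts (-0.80). Other members were near level and not called, among them Tsc22d3 (1344 and 895 counts, log2 ratio 0.09), Per1 (1608 and 980 counts, log2 ratio -0.04) and Dusp1 (743 and 428 counts, log2 ratio -0.12). Fkbp5, Tsc22d3, Per1 and Dusp1 were chosen after their values were seen. Immediate early genes had 7 of 22 called lower and 1 higher, with Myc at 499 and 133 counts (-1.23) and Atf3 at 97 and 28 counts (-1.11). The receptor Nr4a2 was the one higher (17 and 25 counts, log2 ratio 1.20). Lists for apoptosis, p53 and necroptosis had medians of 0.06, -0.03 and 0.03, and all 3 were below 0 under library size scaling. Of 17 genes of necroptosis and pyroptosis 1 was called, the nucleic acid sensor Zbp1 (75 and 10 counts, log2 ratio -2.19).

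Innate immune genes were lower in part. Toll receptors and NF-kB genes had 6 of 35 called lower and 1 higher, with a median of -0.29, and Tlr4, the receptor for lipopolysaccharide, had 64 and 17 counts (-1.22). Interferon stimulated genes had 8 of 43 called lower (18.6%) and none higher, with a median of -0.35, led by Zbp1, Oasl1 (38 and 8 counts, log2 ratio -1.53) and Gbp2 (157 and 34 counts, log2 ratio -1.52). Chemokines were split, with 6 of 19 called lower and 4 higher. The neutrophil attractants Cxcl2 (47 and 6 counts, log2 ratio -2.23) and Cxcl5 (62 and 9 counts, log2 ratio -2.07) and the T cell attractant Cxcl10 (215 and 35 counts, log2 ratio -1.94) were lowest, and Ccl4 (12 and 21 counts, log2 ratio 1.43), Ccl6 (25 and 33 counts, log2 ratio 1.05) and Ccl27a (345 and 432 counts, log2 ratio 1.00) highest. Complement C3, the hub of its cascade, had 7284 and 1536 counts (-1.57), and the complement list was level with 3 higher and 3 lower of 22, or 2 and 6 under library size scaling. The signal transducer of interleukin 6, Stat3, had 2906 and 849 counts (-1.10) and its feedback inhibitor Socs3 376 and 102 counts (-1.21). The list of cytokine receptors and JAK-STAT genes was not low as a whole, with 6 of 42 called lower and 1 higher. Its median was -0.06, with 19 genes above 0 and 23 below.

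Coagulation genes other than fibrinogen had 6 of 20 called lower and none higher. The lowest were the inhibitor Tfpi2 (107 and 8 counts, log2 ratio -3.01), the clot cross-linker F13a1 (91 and 19 counts, log2 ratio -1.57) and the inhibitor Tfpi (146 and 46 counts, log2 ratio -0.99). Matrix proteases and their inhibitors had 11 of 44 called lower and 4 higher, and matrilysin (Mmp7), made by injured tubules, had 67 and 7 counts (-2.52). Collagens were even, at 5 higher and 4 lower of 30.

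**Figure D5:**
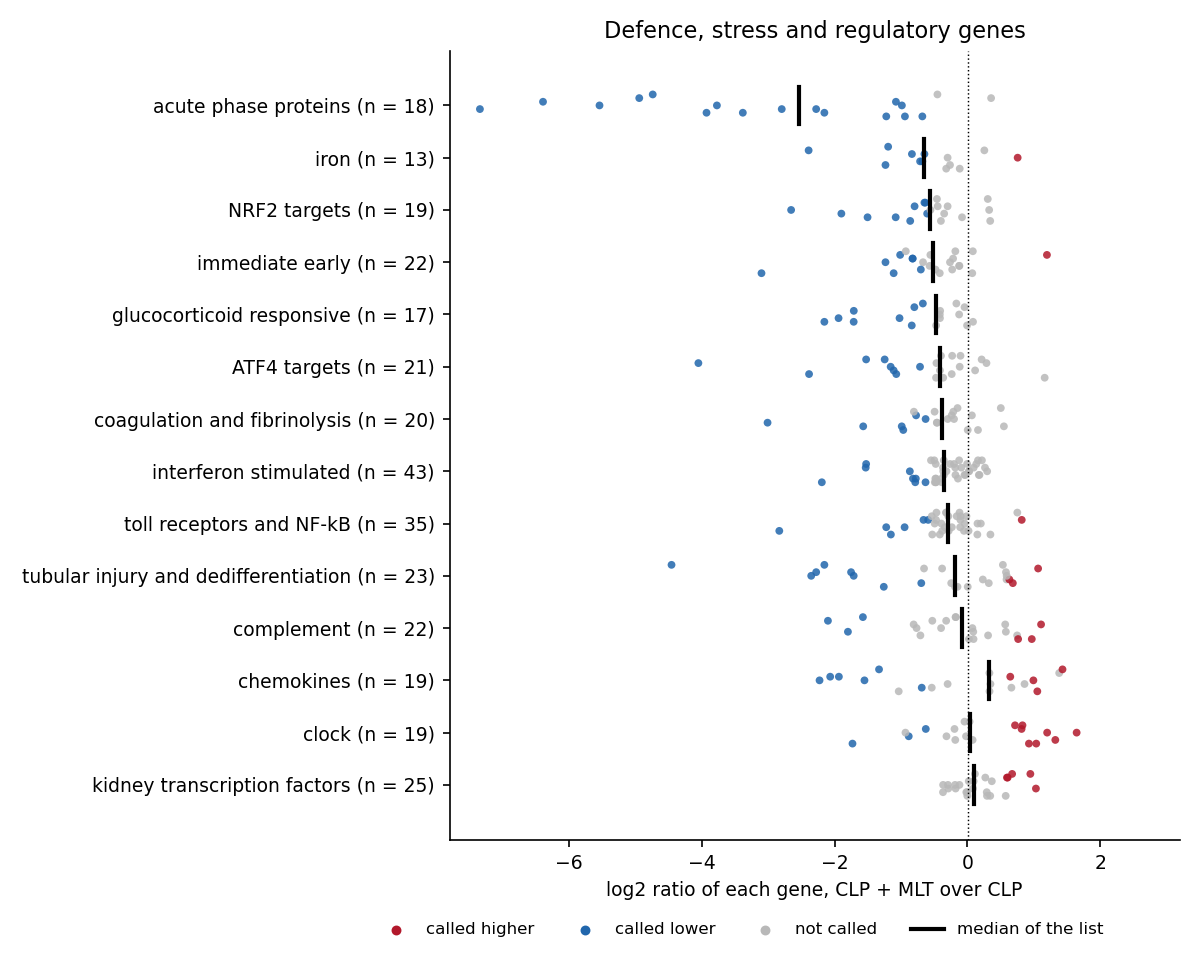
Log2 ratio of CLP + MLT over CLP for each tested gene of 14 defence, stress and regulatory lists. Points are genes, red if called higher, blue if called lower and grey otherwise, the bar is the median of the list and the dotted line the median of all genes tested. The acute phase list reaches from -7.34 to 0.36 with a median of -2.54, and the clock list has calls on both sides, its median turning from 0.03 to -0.16 under library size scaling, as that of kidney transcription factors did from 0.09 to -0.10.

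The circadian clock held opposite calls. Of 19 clock genes 8 were called higher (42.1%) and 3 lower (15.8%). The activator Arntl (BMAL1) had 123 and 23 counts (-1.73, interval -2.46 to -1.10), with the repressors Nfil3 at 168 and 57 counts (-0.88) and Nr1d1 at 1906 and 775 counts (-0.63). On the other side stood the repressor Ciart with 81 and 160 counts (1.65) and Per3 with 692 and 1089 counts (1.33). Per2 (1432 and 1846 counts, log2 ratio 1.04) and the output factors Dbp (1636 and 1954 counts, log2 ratio 0.93) and Tef (7190 and 7952 counts, log2 ratio 0.82) were also higher, and were named after their values were seen. Nr1d2 was called higher (2286 and 2361 counts, log2 ratio 0.72), unlike Nr1d1, and Per1 was near level (1608 and 980 counts, log2 ratio -0.04). Arntl and the Per and Dbp genes are known to peak at opposite times of day. The sources used here do not give the hour at which each kidney was taken, and its part in these values was not tested.

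Kidney transcription factors had 5 of 25 called higher and none lower, though their median of 0.09 turned to -0.10 under library size scaling. Of those called, Sim2 had 385 and 467 counts (0.95) and Gata3 415 and 416 counts (0.67). The hepatocyte factor Hnf4a, which drives proximal tubule genes, was at 10248 and 5925 counts (-0.12). Zinc finger proteins, the largest list with 343 tested genes, had 19 higher and 15 lower, a smaller share than over all genes. Library size scaling gave 6 higher and 31 lower. The growth factor Igf1 had 143 and 204 counts (1.18) and its binding protein Igfbp1 77 and 20 counts (-1.26). The melatonin receptors were at or near the floor, with 0 counts of Mtnr1a in both libraries and 0 and 1 of Mtnr1b, and 0 counts allow up to 0.122 CPM in the CLP and 0.195 CPM in the CLP + MLT library. Maob, which breaks down monoamines, had 186 and 26 counts (-2.15).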

How the data were processed

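The authors trimmed reads with trim-galore and aligned them to mm10 with HISAT2 2.1.0, and HISAT2, HTSeq and the build also stand in the submitters' processing notes. The deposited values are raw counts per Ensembl gene, 1 file per library, with no normalization by the authors. Strand setting and annotation: not given in the sources used here. Identifiers were matched to GENCODE M21 on GRCm38, 54349 with and 792 without their version, and 260 stayed unmatched.

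Rows of unassigned reads were left out, at 37.7% and 33.0% without a feature. Libraries were scaled by TMM (edgeR 4.0.16) and log2 ratios had a prior of 0.5 counts. Genes averaging 10 counts or more were tested by an exact binomial test (scipy 1.17.1), with exact 95% Clopper-Pearson intervals and a floor of 3 counts, all for counting error only. The fold limit and p limit follow the study's methods. The calls were also run on simulated counts that held counting error only, a run that cannot speak to the spread between animals. The 111 gene lists were chosen with earlier results of these data known. Named genes were the 15 largest rises and falls among called protein-coding genes averaging 100 counts or more, the 10 largest gains and losses in CPM, and for each list up to 3 called members per direction and, for cell lists, the member with most counts, with exceptions named. Some genes that this rule names are not reported here. Alb, Atp5b, Camp, Cidec, Csf3r, Cxcr2, Hnf4a, Mmp9, Nphs1, Nr1d2, Pdk4, Retnlg, Tcf21 and Ttr were also chosen after their values were seen. Alternatives covered scaling, filter, prior, fold, interval, gene type and an assumed spread between animals. The heart libraries gave side values only. Promoter windows came from RefSeq.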

Additional observations from a re-analysis of the deposited data

Results flagged for a closer look

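With 1 library in each group, no library could be set against others of its group. Values in kidney and heart, compared for the same lists with melatonin over without it, were set side by side over genes tested in both tissues where the median log2 ratios had opposite signs and both were at least 0.25 in size. The difference between tissues was not tested. Nuclear genes of the respiratory chain and ATP synthase showed 0.33 for the kidney and -1.15 for the heart, a difference of 1.49 over 79 genes. Mitosis genes had 0.44 and -0.33, a difference of 0.77 over 16 genes. Chemokines had 0.33 and -0.53, a difference of 0.86 over 13 genes. Markers of S1 and S2 had -0.45 and 0.71, a difference of -1.16 over 16 genes, though these are markers of a kidney segment.

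Reads aligned to more than 1 place, which are outside the gene counts, made up 32.6% of the CLP + MLT kidney library against 23.6% of the CLP kidney library, and 37.0% and 38.6% in the heart libraries with and without melatonin.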

How the results depend on the processing

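Called genes numbered 1320 higher and 1284 lower. Library size scaling gave 727 and 2373, a fold limit of 2 gave 563 and 622, and a 99% exact interval wholly beyond 1.5-fold gave 437 and 427. An assumed coefficient of variation between animals of 0.2 gave 289 and 330, and of 0.4 gave 23 and 67, and the true spread between animals cannot be had from 1 library a group. Counts under DESeq2 size factors, upper quartile scaling, no filter, a minimum mean of 50, a prior of 5, protein-coding genes alone and without mitochondrial and haemoglobin genes were within 1.5 times. In the heart library size scaling left both counts within 1.5 times. None of the 50 leading genes, by ratio or by CPM, changed sign under library size scaling or a prior of 5. Library size scaling moved 54 of 110 list medians by more than their counting interval and DESeq2 size factors 0, and no cause other than the shift of the centre was tested. Dropping the filter moved 8 list medians in that sense, and a minimum mean of 50 counts moved 2. Median log2 ratios over 5 equal groups of exon length ran from -0.02 to 0.04, but the calls differed. The shortest group of 2757 genes had 286 called higher and 235 lower, and the longest group of 2757 had 153 and 127. These groups were not matched for level, and the part of length in the list results was not tested. No paired analysis was possible because each group held 1 library, and no replicate could be left out.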

Other observations

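The processed pseudogene Gm10095 on chromosome 12 had 4 counts in the CLP kidney and 534 in the CLP + MLT kidney (log2 ratio 7.53, interval 6.37 to 9.61), the largest ratio of all genes tested, and 309 and 690 counts in the heart libraries. It was chosen after its values were seen, and pseudogenes can share reads with their parent genes.

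Of 1861 long noncoding genes 10.3% were called higher and 11.1% lower, against 7.08% and 6.82% of 13795 protein-coding genes, but the groups differed in level. At 1 to 10 CPM the shares were 12.6% higher and 12.1% lower for long noncoding genes and 12.6% and 10.9% for nuclear protein-coding ones. At 10 to 100 CPM they were 12.1% and 10.5% of 315 long noncoding genes against 4.46% and 4.82% of 7906 nuclear protein-coding genes. Under 1 CPM they were 3.80% and 9.28% against 6.83% and 10.1%. These shares were compared by level after the data were seen.

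Fewer calls were made among genes of the middle range of level. Of 7906 nuclear protein-coding genes at 10 to 100 CPM, 4.46% were called higher and 4.82% lower, whereas of the 41 genes over 1000 CPM 8 were higher and 5 lower. Kap, the androgen-regulated protein of the proximal tubule, was the nuclear protein-coding gene with the greatest gain in CPM, with 18290 and 28550 CPM (448683 and 439585 counts, log2 ratio 0.64).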
